A study of Rattus norvegicus with 96 samples.

Results

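The Elavl family of RNA-binding proteins was followed across the central nucleus of the amygdala of 10 rat lines. The family comprised 4 of the 14217 genes that the array measures, Elavl1, Elavl2, Elavl3 and Elavl4, and 9 of its 31042 probe sets. All probe sets assigned to only 1 of these symbols were taken, namely 3 for Elavl1, 3 for Elavl2, 2 for Elavl3 and 1 for Elavl4. Elavl1 was chosen by its measured log2 levels in the HAD1/LAD1 and HAD2/LAD2 line pairs, which differ in opposite directions, so its values in these pairs are a description without a test. Elavl2, Elavl3 and Elavl4 entered as relatives, whatever their values.

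The series held 96 arrays, each of 1 animal, from 5 pairs of rat lines selected for high or low alcohol preference. The preferring lines were HAD1 (9 arrays), HAD2 (10), P (10), AA (10) and sP (8), and their non-preferring partners were LAD1 (10), LAD2 (10), NP (10), ANA (10) and sNP (9). HAD1/LAD1 and HAD2/LAD2 were bred as replicate selections from one heterogeneous founder stock, P and NP came from Wistar rats, AA and ANA were bred in Finland, and sP and sNP in Sardinia. The labels record the line and the preference of each animal and name no treatment, sex or age, and partner lines may differ anywhere in the genome. Values are log2 intensities of single probe sets, and the array medians lay between 7.77 and 8.02.

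Elavl proteins carry 3 RNA recognition motifs and bind stretches rich in adenine and uracil or in uracil alone, mostly in the untranslated tails of mRNAs. Elavl1, also called HuR, is made in nearly all cells and shuttles between nucleus and cytoplasm. It is known for protecting short-lived mRNAs of growth, stress and inflammation genes from decay. Elavl2 (HuB), Elavl3 (HuC) and Elavl4 (HuD) are the neuronal members, known for roles in neuronal differentiation, alternative splicing and the local use of mRNAs in axons and dendrites.

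The upstream sequence of Elavl1 and of Elavl2 is shown because these were the genes with a difference between lines described below. Each line gives the 250 bases before the transcription start that the RefSeq promoter table uses for the gene, in the GRCr8 assembly, read on the gene's strand, with each CCAAT box (CCAAT) and GC box (GGGCGG) in capitals. Both genes lie on the minus strand, Elavl1 at chr12:7482626-7482875 and Elavl2 at chr5:111202288-111202537.
Elavl1: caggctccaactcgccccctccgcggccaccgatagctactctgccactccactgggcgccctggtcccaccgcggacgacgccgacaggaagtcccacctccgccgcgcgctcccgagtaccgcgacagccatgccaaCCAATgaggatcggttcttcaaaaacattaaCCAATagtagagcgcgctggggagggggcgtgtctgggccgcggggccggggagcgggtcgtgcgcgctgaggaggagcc
Elavl2: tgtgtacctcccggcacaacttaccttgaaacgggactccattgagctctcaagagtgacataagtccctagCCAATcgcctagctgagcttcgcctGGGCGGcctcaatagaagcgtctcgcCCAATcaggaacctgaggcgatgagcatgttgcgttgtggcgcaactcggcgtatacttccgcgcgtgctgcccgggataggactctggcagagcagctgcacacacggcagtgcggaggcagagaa

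The Elavl1 window held 2 CCAAT boxes and no GC box, and the Elavl2 window held 2 CCAAT boxes and 1 GC box. Searched on both strands, 34.02% of the 33469 RefSeq promoter windows of this length held CCAAT and 30.47% held GGGCGG. The Elavl1 window was 68.4% G and C and the Elavl2 window 58.4%, against a median of 51.2% over all windows. Elavl3 (75.6% G and C) had 1 GC box, and Elavl4 (49.6%) had neither motif. TATAAA, found in 12.93% of all windows, was in none of these 4. The Elavl2 window partly overlaps the span RefSeq lists for the gene, and the Elavl3 and Elavl4 windows lie wholly within theirs, so these are not the outermost starts listed. These matches describe the letters only, and no array value measures the promoter.

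Before the values, the arrays themselves need a description. An array was placed between the line medians of its pair by the 100 probe sets that best separated the pair's other arrays. The score was the median position over these probe sets. Odd and even chromosomes were scored apart, without chromosomes 5, 8 and 12, which hold the family. By this score 14 arrays lay on the side of the other line on both sets of chromosomes. They were HAD1 28 and LAD1 37, then P 1, P 9, NP 1 and NP 9, then AA 15, AA 17, AA 19 and ANA 16, and then sP 2, sP 9, sNP 8 and sNP 9. HAD2/LAD2 had 0 such arrays. The arrays sP 2 and sNP 2 were nearly identical, with an SD of their differences over probe sets of 0.0901, against 0.165 for the next closest arrays within any line pair, and without these 2 arrays 0 probe sets were called in sP/sNP. For animal LAD1 36 the title says LAD1 and the source name HAD1. The title was followed, and the score of this array lay on the LAD1 side. Elavl1 differences at 1391743_at are therefore given with and without these arrays, and other results where leaving them out changed a call or moved a called value. Since these arrays were picked by how they separate the lines, leaving them out widens that separation by construction on the chromosomes scored.

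The 3' to 5' ratios of control genes also set the line pairs apart. What set these ratios was not tested. The log2 ratio of the 3' to the 5' control probe set of GAPDH averaged 3.84 ± 0.66 in HAD1, 4.09 ± 0.46 in LAD1, 3.43 ± 0.58 in HAD2 and 3.33 ± 0.26 in LAD2 (SD), against 0.20 to 0.43 in the other 6 lines. The same ratio of beta-actin averaged 4.06 to 4.25 in the HAD and LAD lines, against 1.99 to 2.87 in the other 6. Levels across line pairs are for this reason only described, and every difference is taken within a pair. Of 51 markers of 9 cell types, 46 were measured. The 9 central amygdala markers averaged between 9.56 in LAD1 and 11.18 in ANA. In bulk tissue, fewer cells of a type and less RNA per cell cannot be told apart.

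The brightest Elavl1 probe set, 1391743_at, was higher in HAD1 than in LAD1 and lower in HAD2 than in LAD2. In HAD1 its lowest, median and highest log2 values were 9.003, 10.70 and 11.02, and in LAD1 they were 8.77, 9.27 and 10.71. In HAD2 they were 8.55, 8.89 and 9.44, and in LAD2 10.59, 10.90 and 11.06. The HAD2 and LAD2 arrays did not overlap, whereas HAD1 and LAD1 did. The values of Elavl1 in these pairs chose it, and the share of all probe sets without such overlap was not counted.

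The HAD1 minus LAD1 difference was 1.11 (SE 0.27), or 2.2-fold. The overlap came from few arrays: HAD1 28 read 9.003 and HAD1 24 read 9.33, while LAD1 37 read 10.71 and all other LAD1 arrays lay at or below 9.65. HAD1 28 and LAD1 37 are the 2 arrays of this pair that lay on the other line's side by score, and without them the difference was 1.44 (SE 0.19). HAD1 24 scored on the HAD1 side, by a score that uses no probe set of chromosome 12, where Elavl1 lies. At the Elavl1 probe set 1393188_at HAD1 24 was also the lowest HAD1 array, at 6.60. LAD1 36, the animal with 2 labels, read 8.99.

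The HAD2 minus LAD2 difference was -1.96 (SE 0.09), a signal 3.90-fold lower in HAD2. The 10 HAD2 arrays averaged 8.90 ± 0.25 and the 10 LAD2 arrays 10.87 ± 0.15 (SD). Over all probe sets, 0.963% passed an adjusted p of 0.05 in HAD1/LAD1 and 4.09% in HAD2/LAD2 (limma, Benjamini-Hochberg), shares that cannot be read against Elavl1 itself because these contrasts chose it.

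**Figure D1:**
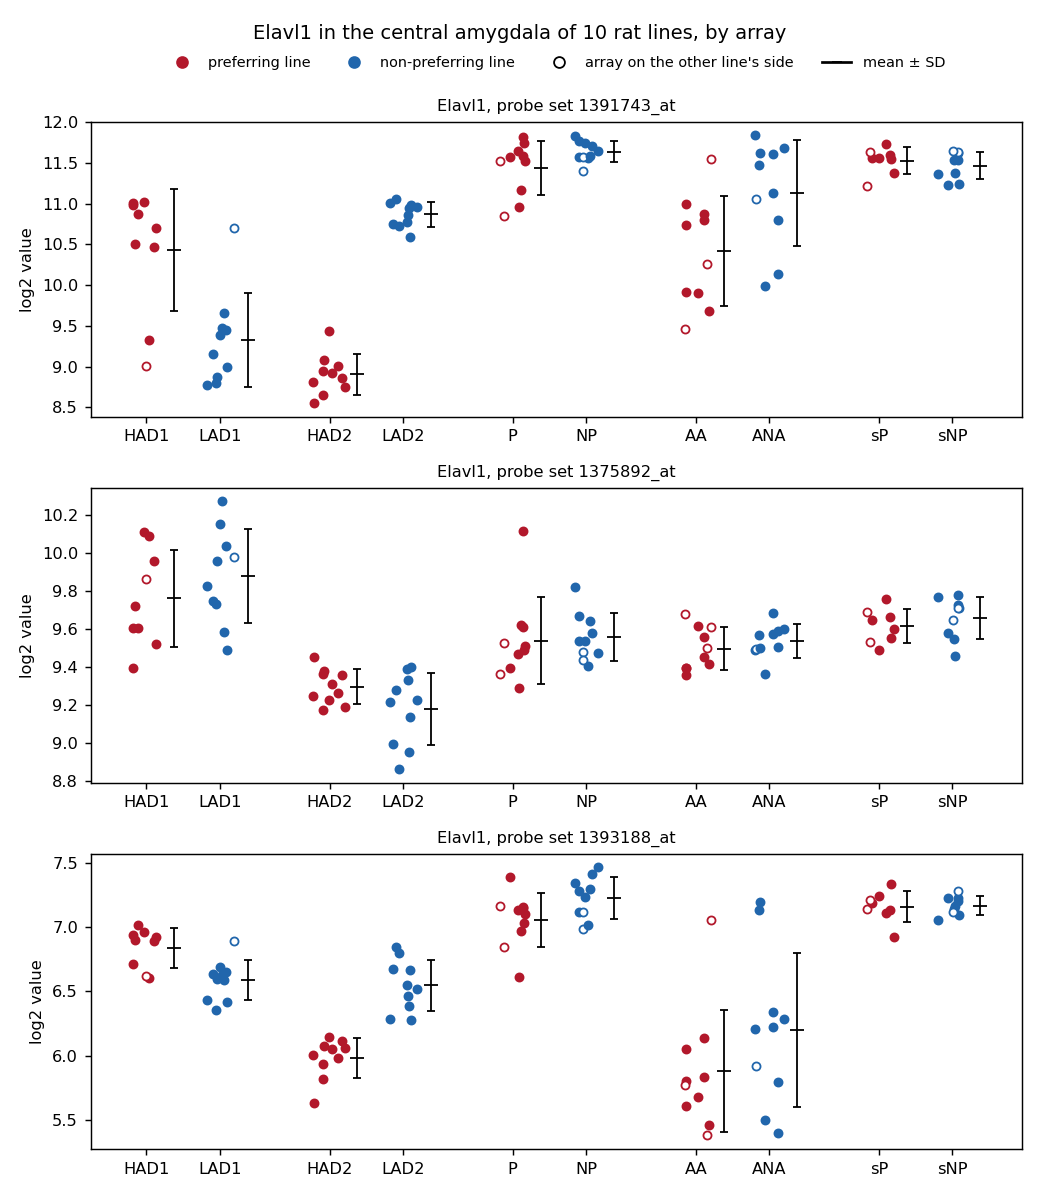
Log2 values of the 3 Elavl1 probe sets (vertical axes) by line, 1 point per array, with each preferring line left of its non-preferring partner and the mean ± SD beside it; open points are the 14 arrays on the other line's side. In the top panel HAD2 lies between 8.55 and 9.44, below every LAD2 array, and HAD1 28 and LAD1 37 sit among the values of the opposite line; in the middle panel no such separation is seen.

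The 3 Elavl1 probe sets differed in what they showed. The dim probe set 1393188_at moved like the brightest: HAD1 averaged 6.84 ± 0.16 and LAD1 6.59 ± 0.16 (n = 9 and 10), and HAD2 averaged 5.98 ± 0.16 and LAD2 6.55 ± 0.20 (n = 10 each). Its differences were 0.25 (SE 0.07) in HAD1/LAD1 and -0.57 (SE 0.08) in HAD2/LAD2, smaller than those of 1391743_at, and HAD2 and LAD2 again did not overlap.

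The probe set 1375892_at gave -0.11 (SE 0.11) in HAD1/LAD1 and 0.12 (SE 0.07) in HAD2/LAD2, each against the sign of the brightest probe set. Its HAD2 arrays ran from 9.17 over a median of 9.29 to 9.45, and its LAD2 arrays from 8.86 over 9.22 to 9.40. The groups overlapped. Which stretch of the Elavl1 transcript each probe set reads, and whether the lines differ in sequence there, was not analysed here.

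Within lines, after the line mean was taken from each array, 1391743_at and 1393188_at varied together (Pearson r = 0.63 over 96 arrays). The correlation was 0.82 in HAD1/LAD1, 0.75 in AA/ANA, 0.71 in P/NP, 0.31 in sP/sNP and 0.20 in HAD2/LAD2. The value in HAD2/LAD2 pools 0.71 within HAD2 and -0.42 within LAD2 (n = 10 each). Between 1391743_at and 1375892_at it was 0.05 over the 96 arrays, and between 1375892_at and 1393188_at 0.10. The probe sets of one array share its RNA and its hybridisation, so these values describe and carry no test.

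**Figure D2:**
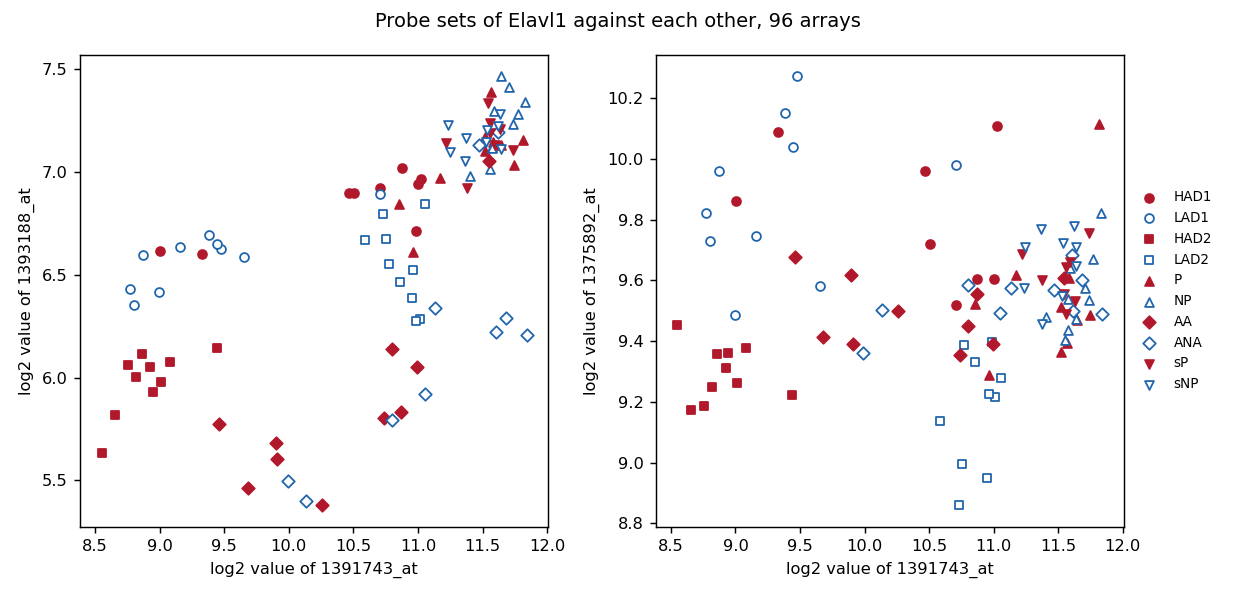
Log2 value of 1391743_at (horizontal axes) against 1393188_at (left) and 1375892_at (right) in 96 arrays, with filled symbols for preferring and open symbols for non-preferring lines. On the left the arrays of HAD1, LAD1, AA and ANA each spread along a rising band; on the right HAD2 and LAD2 differ along the horizontal axis while their vertical ranges overlap.

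The P/NP, AA/ANA and sP/sNP pairs played no part in choosing Elavl1, and there it was tested. Of 31042 probe sets 0% passed in each of the 3 pairs, with 1523, 1528 and 1341 at an unadjusted p under 0.05, and none of the 9 Elavl probe sets was called in any of them.

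In AA/ANA, 1391743_at ran from 9.46 (AA 17) over a median of 10.50 to 11.55 (AA 19) in AA, and from 9.99 (ANA 14) over 11.30 to 11.84 (ANA 12) in ANA. Both lines spread over about the same width, and they overlapped widely. The difference was -0.72 (SE 0.27, 95% interval -1.27 to -0.16). It did not pass (limma adjusted p = 0.897; unadjusted p = 0.0140), although 9 of 10 AA arrays lay below the ANA mean and 8 of 10 ANA arrays above the AA mean. Without AA 15, AA 17, AA 19 and ANA 16 it was -0.73 (SE 0.28, adjusted p = 0.246), and over 7 alternatives the adjusted p ran from 0.0626 to 0.994. The dim probe set 1393188_at gave -0.32 (SE 0.22, adjusted p = 0.983), with AA 19 at 7.05, above the next AA array at 6.14.

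In P/NP, 1391743_at ran from 10.85 (P 1) over a median of 11.54 to 11.82 (P 5) in P and from 11.41 (NP 1) over 11.61 to 11.83 (NP 3) in NP. The difference was -0.20 (SE 0.11, limma adjusted p = 1.0), and without P 1, P 9, NP 1 and NP 9 it was -0.17 (SE 0.10, adjusted p = 0.718). In sP/sNP it ran from 11.22 (sP 2) over 11.56 to 11.74 (sP 7) in sP and from 11.23 (sNP 5) over 11.53 to 11.64 (sNP 9) in sNP, a difference of 0.06 (SE 0.07, 95% interval -0.09 to 0.22, adjusted p = 1.0). The sP and sNP arrays covered nearly the same range. Without sP 2, sP 9, sNP 8 and sNP 9 the difference was 0.15 (SE 0.07, adjusted p = 0.490). The mean over the 3 pairs was -0.28 (SE 0.12, limma adjusted p = 0.734), where 0.206% of probe sets passed. The 3 differences did not pass a test of variation among pairs either (F test, adjusted p = 0.586), where 0.374% of probe sets passed.

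Ordered by mean, 1391743_at stood at 11.64 ± 0.12 in NP, 11.53 ± 0.16 in sP, 11.46 ± 0.16 in sNP, 11.44 ± 0.33 in P, 11.13 ± 0.65 in ANA, 10.87 ± 0.15 in LAD2, 10.43 ± 0.75 in HAD1, 10.42 ± 0.67 in AA, 9.33 ± 0.58 in LAD1 and 8.90 ± 0.25 in HAD2 (SD). Only the step of 1.09 between AA and LAD1 exceeded the larger SD of the 2 lines beside it, so the other neighbours in this order do not differ beyond their spread. LAD1 and HAD2, at the low end, have opposite alcohol preferences. The line means spanned 2.73 at 1391743_at, 1.349 at 1393188_at and 0.70 at 1375892_at.

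The neuronal members were compared next. Over their 6 probe sets and 5 line pairs, 1 of 30 differences passed the test, and differences ran from -0.18 to 0.29. In HAD1/LAD1 0 of 6 passed, beside 0.963% of all probe sets, in HAD2/LAD2 1 of 6, beside 4.09%, and in each other pair 0 of 6. Without the arrays on the other line's side 1 of 30 passed too, with the same range of differences. The mean over 5 pairs did not pass for any of the 6 probe sets (lowest adjusted p = 0.820; 0.986% of all probe sets passed), and neither did the variation among pairs (lowest adjusted p = 0.547; 4.54% passed).

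The 1 call was Elavl2 in HAD2/LAD2, at its dimmest probe set, 1381677_at. It ran from 5.66 over a median of 5.87 to 6.23 in HAD2 and from 5.36 over 5.61 to 5.78 in LAD2. The ranges overlapped, yet all 10 HAD2 arrays lay above the LAD2 mean and all 10 LAD2 arrays below the HAD2 mean. Elavl2 rose by 0.29 in HAD2 against LAD2 (SE 0.06, limma adjusted p = 0.00341), or 1.2-fold. It was called in every fit that left out 1 array (adjusted p 0.00133 to 0.0081), and was not called in a single fit of all 10 lines (adjusted p = 0.454).

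The brighter Elavl2 probe sets did not follow. In HAD2/LAD2, 1383736_at gave 0.09 (SE 0.05, adjusted p = 0.353) and 1383768_at gave -0.18 (SE 0.09, adjusted p = 0.345). In HAD1/LAD1, 1381677_at gave 0.18 (SE 0.08, adjusted p = 0.373), 1383768_at 0.19 (SE 0.11, adjusted p = 0.542) and 1383736_at -0.06 (SE 0.10, adjusted p = 0.871). Within lines the Elavl2 probe sets correlated at 0.80 to 0.88 over 96 arrays, but 1383736_at and 1381677_at only at 0.18 in HAD2/LAD2 and at -0.22 in HAD1/LAD1, where line means of 1381677_at were 5.60 to 6.19. In the 6 lines with the lower 3' to 5' ratios 1381677_at averaged 7.97 to 8.13. In contrast, 1383736_at was higher in the HAD and LAD lines, at 12.85 to 12.97, than in the other 6, at 11.84 to 12.10. These 2 probe sets of one gene thus put the HAD and LAD lines at opposite ends.

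Elavl4, of which HuD is the product, had the lowest adjusted p among the differences that were not called. In HAD2 1389975_at ran from 10.54 over 10.92 to 11.23, and in LAD2 from 10.05 over 10.62 to 11.18, a difference of 0.28 (SE 0.11, 95% interval 0.06 to 0.51, adjusted p = 0.166). Its differences were -0.15 (SE 0.08) in HAD1/LAD1, 0.16 (SE 0.15) in P/NP, 0.08 (SE 0.12) in AA/ANA and 0.02 (SE 0.10) in sP/sNP. All 5 missed the threshold, with adjusted p of 0.166 to 1.0.

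Elavl3 varied little. Its probe sets 1382168_at and 1382169_x_at were designed on 1 target sequence, correlated at 0.86 within lines, and gave differences between -0.10 and 0.07 in the 5 pairs, with none called. The widest 95% intervals, in HAD2/LAD2, ran from -0.25 to 0.10 for 1382168_at and from -0.24 to 0.11 for 1382169_x_at. The line means of 1382168_at lay between 10.98 in HAD1 and 11.60 in AA. Those of 1382169_x_at spanned more, from 10.07 in HAD1 to 11.59 in AA.

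**Figure D3:**
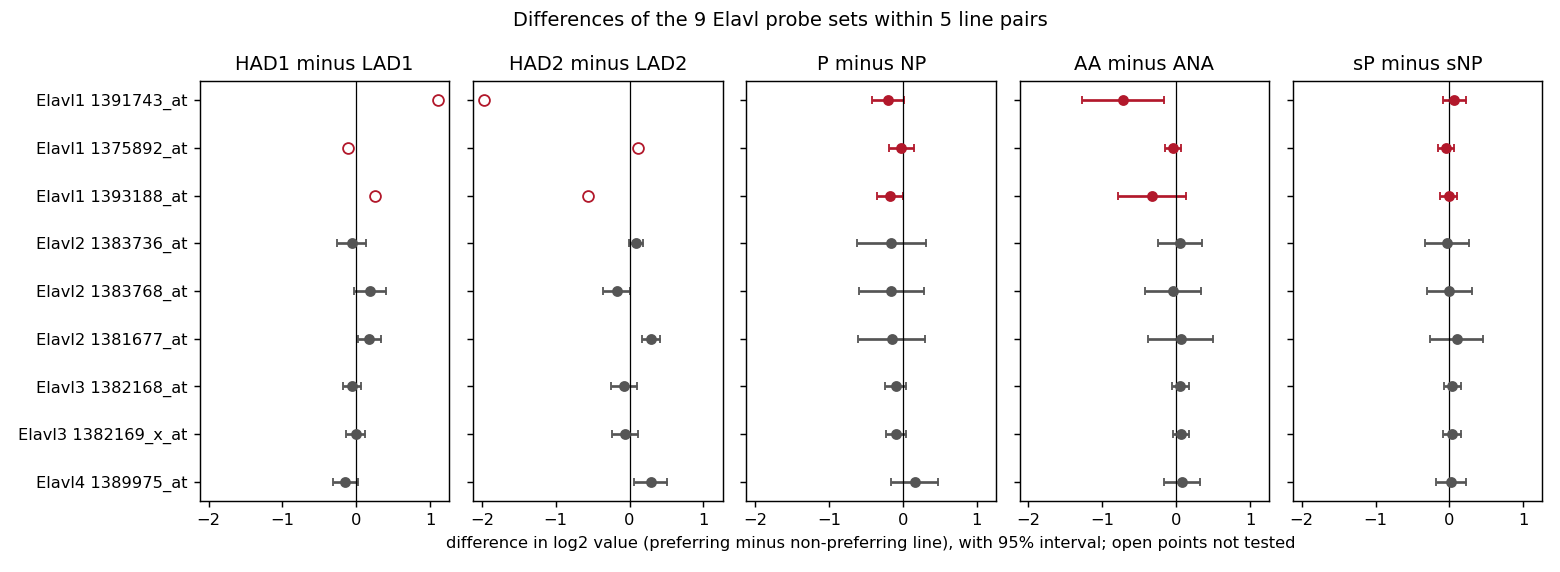
Difference in log2 value, preferring minus non-preferring line, of the 9 Elavl probe sets (rows; Elavl1 in red) in each of the 5 line pairs, with 95% intervals from limma; the open Elavl1 points in HAD1/LAD1 and HAD2/LAD2 were not tested and have no interval. Among the Elavl1 rows, 1391743_at lies at 1.11 in HAD1/LAD1 and at -1.96 in HAD2/LAD2 while 1375892_at stays near 0 in all 5; the rows of Elavl2, Elavl3 and Elavl4 all lie between -0.18 and 0.29.

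**Figure D4:**
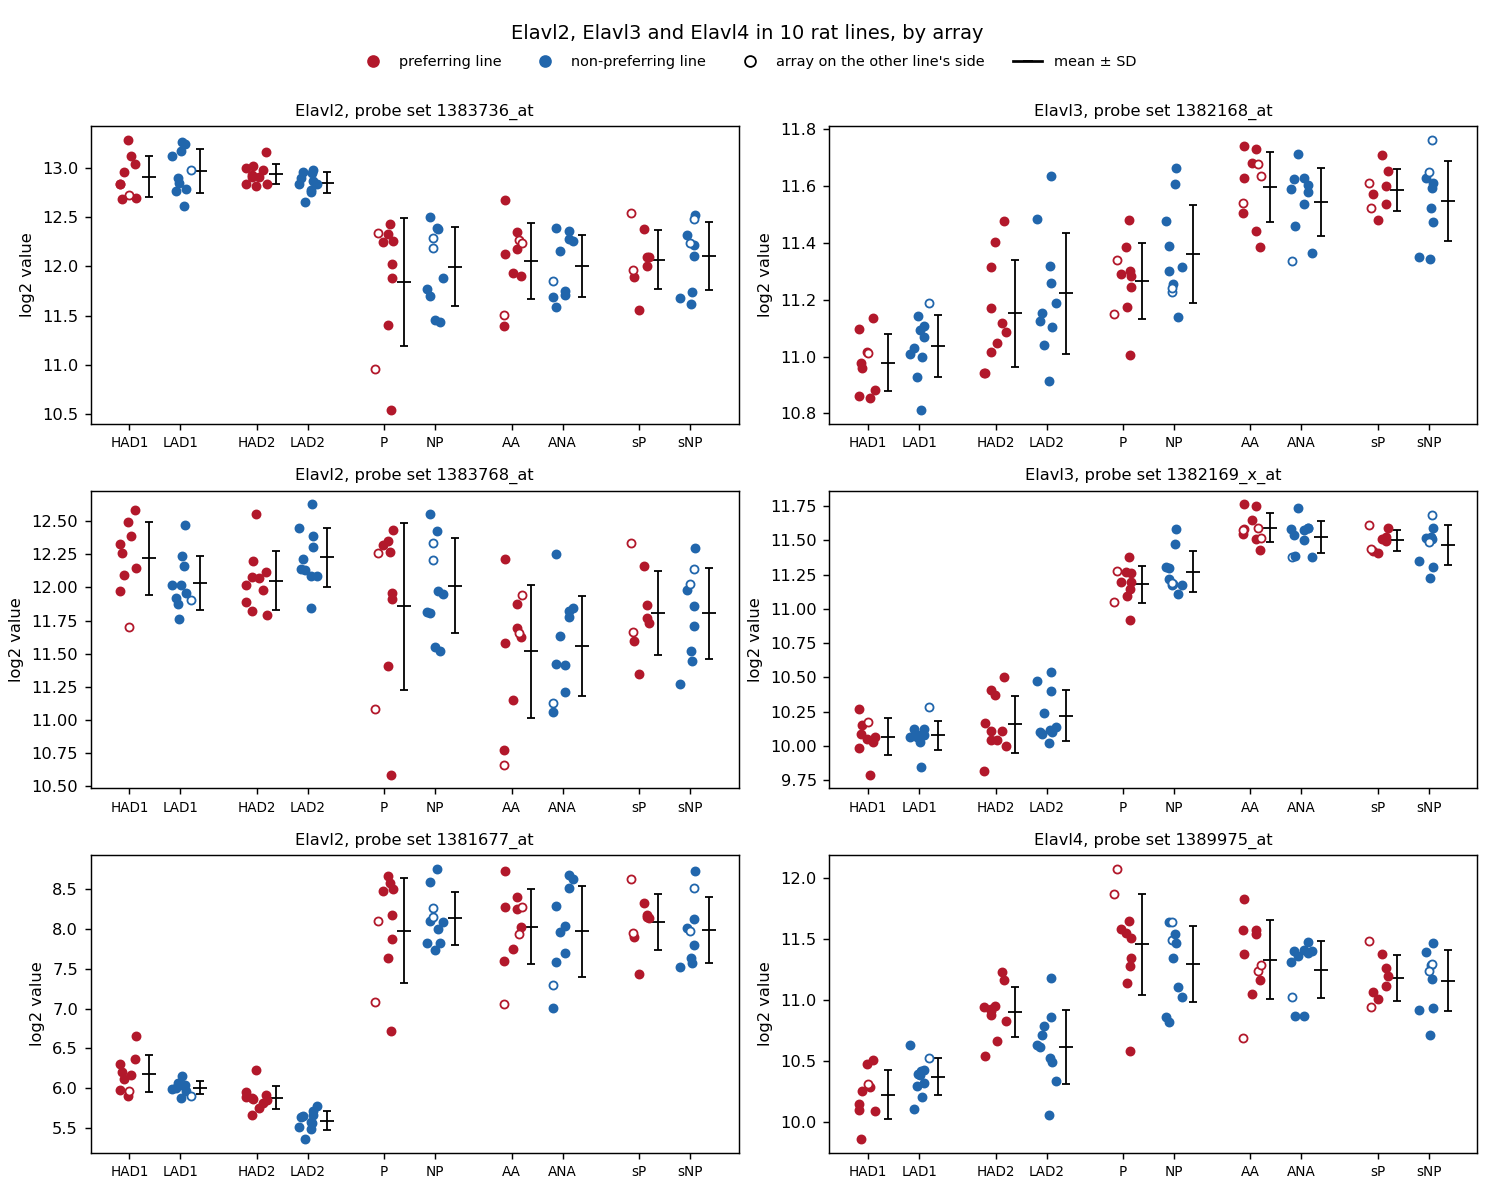
Log2 values of the 6 probe sets of Elavl2, Elavl3 and Elavl4 (vertical axes) by line, 1 point per array, drawn as in the plot of Elavl1. HAD2 lies slightly above LAD2 for 1381677_at, with 5.88 against 5.60 on average, and P 5 is the lowest P array for all 3 Elavl2 probe sets and for Elavl4.

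Among the members, the neuronal genes varied together within lines and Elavl1 did not join them. Over the brightest probe sets and 96 arrays, Elavl2 and Elavl4 correlated at 0.61, Elavl2 and Elavl3 at 0.45 and Elavl3 and Elavl4 at 0.44. Elavl1 correlated with these at -0.10, 0.05 and -0.05. The neuronal genes also varied with markers of tissue composition, given here at the highest and lowest r of each. Elavl2 1383736_at went with the oligodendrocyte markers (r = 0.67) and against the cortical or basolateral markers (r = -0.55). Elavl3 1382168_at went with the endothelial markers (r = 0.60) and against the central amygdala markers (r = -0.57). Elavl4 1389975_at went with the microglial markers (r = 0.48) and against the central amygdala markers (r = -0.45). With the pan-neuronal markers Elavl2 correlated at 0.35, Elavl3 at 0.03 and Elavl4 at 0.45. Elavl1 1391743_at correlated with the 9 marker lists at -0.04 to 0.12 and with the GAPDH 3' to 5' ratio at 0.06. The Elavl1 probe set 1375892_at did vary with them, at 0.42 with the astrocyte, 0.34 with the choroid plexus and 0.29 with the oligodendrocyte markers and at 0.30 with the GAPDH ratio. P 5, low for Elavl2 and Elavl4, had by far the highest mean of the choroid plexus markers among the P arrays, at 12.46. In P 5 the Elavl1 probe set 1375892_at was the highest of the P arrays, at 10.12. The part of tissue composition in the differences was not tested.

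Marker genes past the test between partner lines were found in HAD1/LAD1 and HAD2/LAD2 only. In HAD1/LAD1 1 of 46 passed, beside 0.682% of the brightest probe sets of all genes, the microglial gene Cx3cr1 (-0.40, SE 0.09, adjusted p = 0.0348). In HAD2/LAD2 3 passed, beside 3.75%, namely Cx3cr1 (-0.30, SE 0.06, adjusted p = 0.0033), the microglial receptor gene P2ry12 (0.64, SE 0.08, adjusted p = 4.62e-06) and the endothelial receptor gene Tek (-0.28, SE 0.07, adjusted p = 0.0235). The HAD1/LAD1 call of Cx3cr1 was lost with LAD1 36 left out or counted as HAD1, and in 13 of 19 fits that left out 1 array. Tek was 0.37 (SE 0.10, adjusted p = 0.0873) in HAD1/LAD1, and was called there without HAD1 28 and LAD1 37 (0.49, adjusted p = 0.000714). The central amygdala markers had a median difference of -0.19 in HAD2/LAD2, with 1 of 9 positive and 0 called, and of -0.006 in HAD1/LAD1. The 5 microglial markers together averaged 9.36 in HAD1 (9.11 to 9.68) and 9.64 in LAD1 (9.36 to 9.95), and 9.27 in HAD2 (9.05 to 9.62) and 9.22 in LAD2 (9.01 to 9.87). In the other 3 pairs 0 of 46 passed, although some lists had sizeable median differences. The 3 choroid plexus markers had a median of 0.59 in P/NP, all positive, and the 3 cortical or basolateral markers one of 0.25 in AA/ANA, all positive. The 4 striatal markers were all lower in HAD2/LAD2 (median -0.17), P/NP (-0.17) and AA/ANA (-0.23), and all higher in sP/sNP (0.30). The differences of Elavl2, Elavl3 and Elavl4 lay between -0.18 and 0.29. The part of these markers in the Elavl1 differences was not tested.

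The regulators of Elavl1 and the mRNAs it is known to bind were read on the same arrays, from lists assembled with earlier results of these data known. Of the regulators and partners, which include nuclear export adaptors and kinases, 14 of 15 were measured and 0 passed in any pair. The largest difference was that of Cdk1, a kinase known to phosphorylate HuR, at -0.26 (SE 0.14, adjusted p = 0.537) in HAD1/LAD1. Among the brightest probe sets of all genes, 0.682% passed in HAD1/LAD1, 3.75% in HAD2/LAD2 and 0% in each other pair.

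Of 19 other proteins that bind AU-rich or related elements, 18 were measured, and 1 passed in HAD2/LAD2, where 3.75% of all genes passed. Celf1, a protein that binds GU-rich elements and acts in splicing and decay, fell by 0.26 on the log2 scale, with 12.35 ± 0.12 in HAD2 and 12.61 ± 0.09 in LAD2 (SE 0.05, adjusted p = 0.00156). In HAD1/LAD1 Celf1 averaged 12.40 ± 0.24 in HAD1 and 12.05 ± 0.14 in LAD1, a difference of the other sign at 0.35 (SE 0.09, adjusted p = 0.0554), which was called without HAD1 28 and LAD1 37 (0.40, adjusted p = 0.0135). The median difference of this list in HAD2/LAD2 was -0.03, against -0.0039 over all genes.

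Among 26 known Elavl1 target mRNAs, 22 were measured, and 2 passed, both in HAD2/LAD2, where 3.75% of all genes passed. Jun, an immediate early gene of the AP-1 factor, rose by 0.32 (11.34 ± 0.21 in HAD2, 11.03 ± 0.21 in LAD2; adjusted p = 0.0419), and Ccna2, the gene of cyclin A2, rose by 0.68 (5.86 ± 0.55 in HAD2, 5.18 ± 0.41 in LAD2; adjusted p = 0.0457). Both calls were near the threshold: Jun was lost in 12 and Ccna2 in 13 of 20 fits that left out 1 array. The list's median was 0.02 in HAD2/LAD2, with 12 of 22 positive, and -0.04 in HAD1/LAD1, with 8 of 22 positive, against -0.0039 and -0.01 over all genes. Of 13 mRNAs known as targets of the neuronal Elavl proteins, 8 were measured and 0 passed. The largest difference was at Camk2a, a synaptic kinase gene, at -0.50 (SE 0.15, adjusted p = 0.0735) in HAD2/LAD2.

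On chromosome 12 the 10 measured genes on each side of Elavl1, in the order of the GRCr8 gene table, were taken as its neighbourhood. In HAD2/LAD2, 0 of 20 passed, beside the 3.75% of all genes. In HAD1/LAD1 1 of 20 passed, beside 0.682% of all genes. This was Cers4, a ceramide synthase gene and the next measured gene, which rose by 0.49 in HAD1 against LAD1 (SE 0.11, adjusted p = 0.0309). Without HAD1 28 and LAD1 37 the adjusted p of Cers4 was 0.00054, and with LAD1 36 counted as HAD1 it was 0.198. Leaving out 1 array ended the Cers4 call in 12 of 19 fits. In HAD2/LAD2 Cers4 gave -0.09 (SE 0.06, adjusted p = 0.459). In the other 3 pairs 0 of 20 neighbours passed. Without the arrays on the other line's side 1 of 20 passed in P/NP (Medag) and 1 of 20 in AA/ANA (Zfp958l1). In the same fits 502 of 31042 probe sets were called in P/NP and 579 in AA/ANA. Within lines Cers4 correlated with 1391743_at at 0.39 over 96 arrays.

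**Figure D5:**
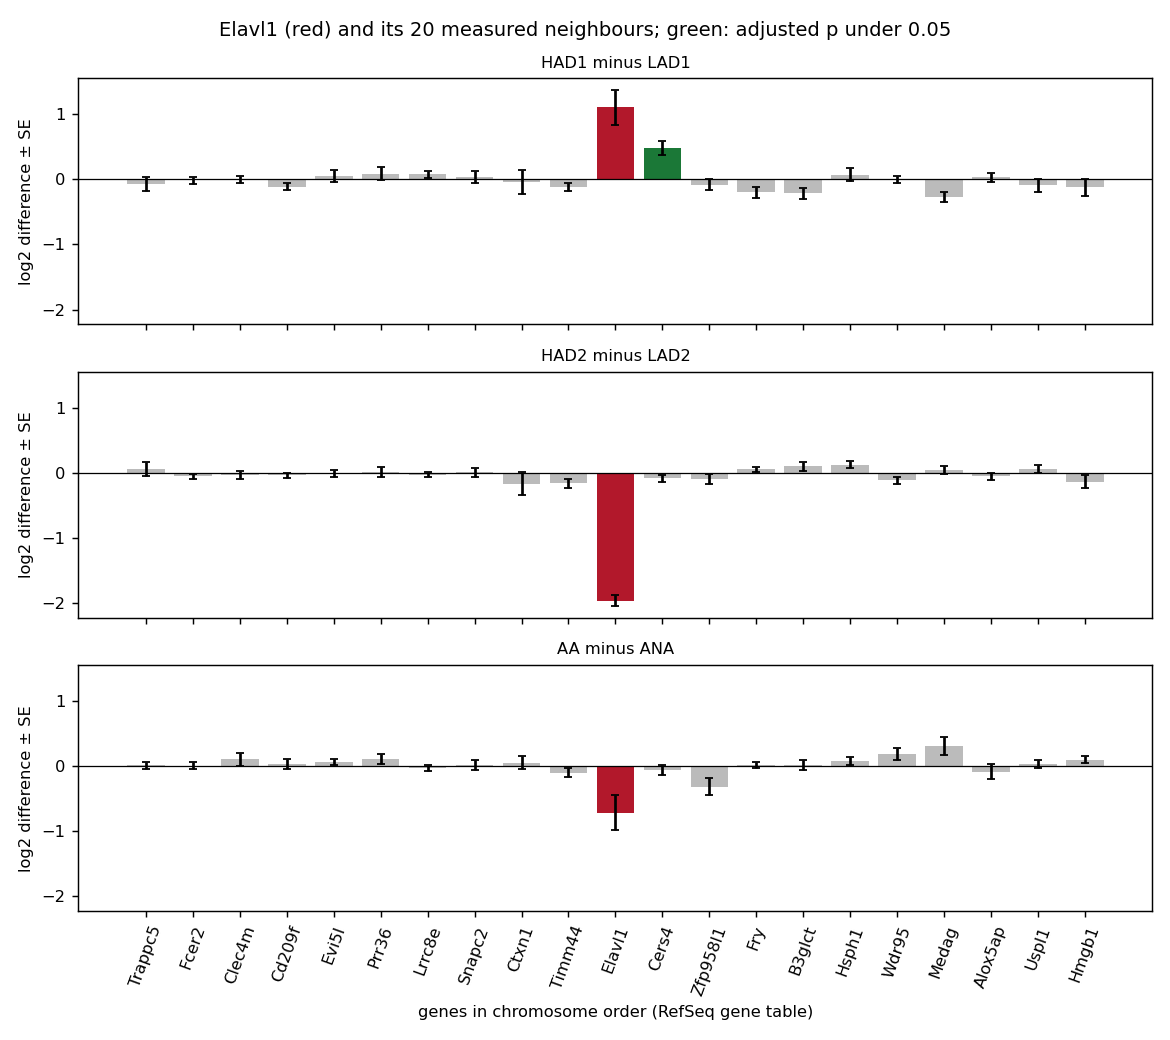
Difference in log2 value ± SE, preferring minus non-preferring line, of Elavl1 1391743_at (red) and its 20 measured neighbours in chromosome order, in HAD1/LAD1, HAD2/LAD2 and AA/ANA; green marks an adjusted p under 0.05. Elavl1 lies at -1.96 in HAD2/LAD2, where no neighbour is marked, and Cers4 beside it is at 0.49 in HAD1/LAD1.

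Elavl2 on chromosome 5 had 4 of 20 neighbours called in HAD2/LAD2 and 1 of 20 in HAD1/LAD1. The HAD2/LAD2 calls were Focad (0.55, SE 0.08), Mtap, a methionine salvage enzyme (0.47, SE 0.10), Tek (-0.28, SE 0.07) and Jun (0.32, SE 0.09). Hook1, a microtubule adaptor gene, was called in HAD1/LAD1 (0.56, SE 0.13), and this call was lost with LAD1 36 left out or counted as HAD1 and in 12 of 19 fits that left out 1 array. These counts stand beside 3.75% and 0.682% of the brightest probe sets of all genes. Without HAD1 28 and LAD1 37, 3 of 20 were called in HAD1/LAD1, against 2.02% of all genes. They were Hook1, Mtap and Tek. Over all arrays Mtap was -0.39 (SE 0.11, adjusted p = 0.0873) and Tek 0.37 (SE 0.10, adjusted p = 0.0873) there, each opposite in sign to its HAD2/LAD2 value. Around Elavl3 and Elavl4, 0 of 20 were called in each pair. Without the arrays on the other line's side, 1 Elavl4 neighbour was called in AA/ANA (Spata6, adjusted p = 0.00484). In the same fits 1 Elavl2 neighbour each was called in AA/ANA (Mllt3) and sP/sNP (Plaa). Of all genes, 1.51% were called in each of these pairs.

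The genes whose level followed Elavl1 1391743_at most closely within lines over 96 arrays were Dyrk2, a protein kinase gene (r = 0.47), Sec23b, a coat protein of vesicles leaving the endoplasmic reticulum (0.43), Mrc1, a macrophage mannose receptor (0.43), the DNA repair gene Brca2 (0.43) and Klhl42 (0.42). The most opposed were Trappc5 (-0.50), Thumpd3 (-0.47) and Mis18a (-0.46). These values include the 14 arrays on the other line's side. Without them, over 82 arrays, Brca2 led at 0.48, and Klhl42 stood at -0.02 and Mis18a at 0.08. Brca2, like Elavl1, lies on chromosome 12, as does Trappc5. Only Brca2 was among the first 5 in both rankings. In HAD1/LAD1 the arrays on the other line's side turn a difference between lines into variation within lines. The ranking over 96 arrays thus favours genes that differ between HAD1 and LAD1. For this reason the HAD1/LAD1 adjusted p given below for these genes are not a separate test. Klhl42 also differed in opposite directions between lines, by 1.07 (SE 0.19, adjusted p = 0.0056) in HAD1/LAD1 and -0.58 (SE 0.11, adjusted p = 0.0011) in HAD2/LAD2, and Brca2 by -0.33 (SE 0.06, adjusted p = 0.000408) in HAD2/LAD2. Thumpd3 went the other way, with -0.57 (SE 0.10, adjusted p = 0.0056) and 0.34 (SE 0.08, adjusted p = 0.0184). Mis18a had one sign in both pairs, at -3.08 (SE 0.50, adjusted p = 0.00508) in HAD1/LAD1 and -0.39 (SE 0.15, adjusted p = 0.156) in HAD2/LAD2. Dyrk2 was 0.36 (SE 0.09, adjusted p = 0.039) in HAD1/LAD1 and 0.03 (SE 0.07, adjusted p = 0.826) in HAD2/LAD2. The HAD1/LAD1 calls of Mis18a and Dyrk2 were lost with LAD1 36 counted as HAD1 (adjusted p = 0.0966 and 0.33), that of Dyrk2 also in 15 of 19 fits that left out 1 array. With LAD1 36 counted as HAD1 the HAD1/LAD1 calls of Klhl42 and Thumpd3 were lost (adjusted p = 0.109 each), and with array weights the HAD2/LAD2 call of Thumpd3 was lost (adjusted p = 0.057). A second Trappc5 probe set, the brighter one, correlated with Elavl1 at -0.09. Trappc5 is among the measured neighbours of Elavl1 and was counted there by this brighter probe set. Its opposed probe set gave -0.27 (SE 0.08, limma adjusted p = 0.125) in HAD1/LAD1.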

How the data were processed

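The deposited values are log2 expression values on 31042 probe sets after 57 control probe sets were left out; the authors made them with RMA, per the submitters' processing notes, from cRNA of 25 ng total RNA hybridised to Affymetrix arrays, per the labels' protocols. The sources used here do not state whether line pairs were normalized together. Groups came from the sample titles. Symbols came from the platform annotation, where 20826 probe sets carry 1 symbol, and genes elsewhere were read at their brightest probe set.

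Each line pair was fitted alone with limma 3.58.1 in R 4.3.3 (moderated variances, intensity trend, no preset direction), with Benjamini-Hochberg adjustment over all probe sets and a threshold of 0.05; 1 fit of 10 lines gave means over pairs and F tests. The fit was tested on simulated data. Differences are preferring minus non-preferring line. Members and lists were chosen with earlier results of these data known. Named genes were all members, list genes, markers and neighbours past the test, and the closest and most opposed profiles. Jun and Tek fall under 2 of these rules. Neighbours of Elavl2, Elavl3 and Elavl4, and the differences of the likeness genes, were added after values were seen. Replicates are separate animals per the titles, and the number of arrays limits precision. Alternatives covered LAD1 36, trend, array weights, filters, normalization, replicate block and arrays left out.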

Additional observations from a re-analysis of the deposited data

Results flagged for a closer look

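Of 90 groups of 8 to 10 arrays, 9 probe sets in 10 lines, 4 held 1 array far from the others by Dixon's criterion, where chance gives about 1 in 20, or 4.5. Elavl1 1391743_at was 10.71 in LAD1 37, against 9.65 in the next LAD1 array; this array lay on the HAD1 side by its other probe sets. Elavl1 1375892_at was 10.12 in P 5, against 9.62 in the next P array; P 5 also had a mean choroid plexus marker level of 12.46. Elavl1 1393188_at was 7.05 in AA 19, against 6.14 in the next AA array; AA 19 lay on the ANA side. Elavl2 1381677_at was 6.23 in HAD2 8, against 5.95 in the next HAD2 array, and without HAD2 8 the HAD2 minus LAD2 difference was 0.25. The part of these arrays' placement in the values was not tested.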

How the results depend on the processing

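The untested Elavl1 differences in HAD1/LAD1 and HAD2/LAD2 kept their sign and moved by less than 1 SD of single arrays in all 156 settings run. Most of these settings left out 1 array, which cannot move a line mean by 1 SD, so the count does not measure robustness. Leaving out 1 array at a time, 1391743_at ran from 1.0325 to 1.285 in HAD1/LAD1 and from -2.0235 to -1.9246 in HAD2/LAD2. No tested Elavl1 difference was called under any alternative. The Elavl2 1381677_at call in HAD2/LAD2 was lost only in a fit of all 10 groups (0.29, adjusted p = 0.454), and the count of family calls there was 0 in that fit, 0 among the brighter 50% of probe sets and 0 with 1 probe set per gene, since the last 2 leave this probe set out. Left out 1 array at a time, a choice made after seeing the data, this difference ran from 0.2485 to 0.3115.

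Near 0, 13 differences changed sign, none called: Elavl3 1382169_x_at in HAD1/LAD1 (0.0055 after quantile normalization, 0.0012 without the arrays on the other line's side, 0.002 with LAD1 36 as HAD1); with array weights, Elavl2 in P/NP (0.06, 0.0399 and 0.0658 for 1383736_at, 1383768_at and 1381677_at), Elavl3 1382168_at in AA/ANA (-0.0053), and Elavl2 1383768_at (-0.0705) and Elavl4 (-0.0201) in sP/sNP; Elavl2 1383768_at in sP/sNP after quantile normalization (-0.0012) and without sP 2 and sNP 2 (-0.0127); and with a replicate block in sP/sNP, Elavl1 1393188_at (0.0046) and Elavl2 1383736_at (0.0124). The cause was not tested.

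Same-numbered arrays of P and NP correlated at -0.11 to 0.50 and of sP and sNP at -0.18 to 0.77, and not every array matched its own number best, so the numbers were not taken to pair animals. With the replicate block 0 probe sets were called in either pair, as without it. HAD1/LAD1 had 299 calls over all probe sets, but 4 with LAD1 36 counted as HAD1, 180 with it left out and 796 without HAD1 28 and LAD1 37; without the arrays on the other line's side P/NP, AA/ANA and sP/sNP had 502, 579 and 542 calls in place of 0. Array weights gave 700 calls in HAD1/LAD1, 3 in P/NP and 207 in AA/ANA, and a fit of all 10 groups gave 785 in HAD1/LAD1, 168 in P/NP, 203 in AA/ANA and 2 in sP/sNP. The brighter 50% and 1 probe set per gene each gave 1 in P/NP. Calls without the arrays on the other line's side are favoured by how those arrays were picked. Without the arrays on the other line's side 1 pathway gene was called in HAD1/LAD1 (Celf1) and 2 in sP/sNP (Tia1 and Vegfa), where none had been. Of all genes, 2.02% were called in HAD1/LAD1 and 1.51% in sP/sNP in these fits. Without these arrays 1 of the 5 genes most like Elavl1 was shared.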
